A study of Mus musculus with 6 samples.

Results

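The cytosolic ribosomal protein genes were described in 6 bulk RNA-seq libraries of tumor-associated macrophages (TAMs). The genes were taken by name and biotype: every protein-coding gene named Rpl or Rps with a digit, or Rpsa, Rplp0, Rplp1 or Rplp2, without the Rps6k kinases and the copies named with -ps, and with 10 or more counts in the libraries together. The rule used no difference between the groups. Of 91 genes that matched by name, 5 were left out because the deposited tables give them another biotype and 0 for low counts, which left 86 of the 14776 protein-coding genes fitted and of the 23424 genes in the tables. Of these 86, 46 encode core proteins of the large (60S) subunit and 31 core proteins of the small (40S) subunit. Another 8 are paralogs or retrocopies (*Rpl3l*, *Rpl7l1*, *Rpl22l1*, *Rpl36al*, *Rpl39l*, *Rps4l*, *Rps27l* and *Rps27rt*), and *Rps19bp1* encodes a nucleolar protein that binds RPS19 and is not a subunit. The gene nearest the minimum was *Rpl39l*, with 17 counts in all libraries together, followed by *Rpl3l* with 101, and the count minimum removed no gene.

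The macrophages came from tumors of the mouse melanoma line YUMM1.7, injected intradermally into wild-type, untreated female C57Bl/6J mice that were 8 weeks old at induction. On day 21, live CD45+CD11b+ cells were sorted by their level of F4/80, a macrophage surface protein encoded by *Adgre1*, into F4/80high and F4/80low TAMs, and 3 libraries were made of each subset. The study describes 3 independent experiments on pooled tumors, so a library is not 1 animal. The study's supplement counts the sorted cells of both subsets under each of 3 sample numbers, and libraries of one number were taken as a pair on that ground, although the labels do not say that these are the replicate numbers. By the study's methods the sort also gated against lineage markers. In its analysis of antigen-presenting cells the lineage gate is drawn in the FITC channel, for which the antibody list names B220, CD3e, NK1.1 and Ly6G, markers of B, T and NK cells and neutrophils. In the plot of the sort itself that channel holds F4/80, and the antibodies of the sort's lineage gate are not given in the sources used here. Reads of poly-A RNA were deposited as raw counts per gene. Total counts were 30292061, 43604373 and 16045281 in the F4/80high libraries of replicates 1 to 3, against 32967733, 32560608 and 16204810 in the F4/80low libraries. The replicate 3 libraries, which a figure of the study draws as a batch of their own, stood apart: 17.1% and 16.1% of their counts fell on *Lars2*, *Gm23935* and *Gm15564*, and 0.378% to 0.609% in the other 4 libraries.

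Ribosomal proteins coat the ribosomal RNA of the translating ribosome and are made in matched amounts, since most subunits hold a single copy of each. In vertebrates most of their mRNAs begin with a C followed by a run of pyrimidines, the terminal oligopyrimidine (TOP) element, through which mTOR signaling and LARP1 control their translation without the need for a change in mRNA level. Their genes are also known for a large number of processed pseudogenes, which share sequence with the parent mRNA.

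The annotated starts of a few genes show a run of this kind or the lack of one, and they were chosen because these genes are described below. The stretches run from 15 bases before the RefSeq transcription start to the 15th base of the transcript (build GRCm38.p6, on the strand of the gene), and capitals mark a C followed by at least 4 further C or T that begins within 5 bases of the start.
Rps6 (minus strand, chr4:86857353-86857382): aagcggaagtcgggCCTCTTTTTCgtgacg
Rpl15 (minus strand, chr14:18270972-18271001): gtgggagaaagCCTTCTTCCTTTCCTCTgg
Rpl12 (plus strand, chr2:32961697-32961726): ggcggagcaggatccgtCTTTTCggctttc
Rpl36al (minus strand, chr12:69184053-69184082): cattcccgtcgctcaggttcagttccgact
Rpl7l1 (minus strand, chr17:46782642-46782671): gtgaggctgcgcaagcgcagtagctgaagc
The core subunit genes *Rps6*, *Rpl15* and *Rpl12* hold a run, and the paralogs *Rpl36al* and *Rpl7l1* hold none in this window. RefSeq starts were matched for 65 of the 86 genes. Such a run was found at 27 of 57 core genes with a start (47.4%), against 21.2% of 27025 genes in the table. In the 300 bases around the start, on both strands, CCGGAAG was found at 42.1% of the core genes against 9.93% of all genes, GGGCGG at 61.4% against 38.2%, and TATAAA at 10.5% against 15.7%. A match of letters is a description and not a site. The lack of a run near a RefSeq start does not show that the mRNA lacks a TOP element.

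The level of *Adgre1* (chromosome 17, 57358691 to 57483527 of GRCm38 in GENCODE M21, as for the other genes below) followed the sort. It was 273, 539 and 360 CPM (counts scaled to the TMM-normalized library size) in the F4/80high libraries of replicates 1 to 3, against 243, 326 and 183 CPM in the F4/80low libraries. It was higher in F4/80high TAMs in each of the 3 pairs although the subsets overlapped, with a log2 fold change of 0.62 (SE 0.21, edgeR quasi-likelihood adjusted p = 0.350). Positive values here and below are higher in F4/80high TAMs.

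The ribosomal protein genes took about 1% of the protein-coding counts, and their share did not separate the subsets. It was 1.49%, 1.08% and 0.935% in the F4/80high libraries of replicates 1 to 3, against 0.939%, 1.55% and 0.781% in the F4/80low libraries, which gives 1.17% ± 0.289 and 1.09% ± 0.405 (SD, n = 3 each). The pairs ran in opposite directions. The F4/80high library was higher by 0.554 percentage points in pair 1 and by 0.154 in pair 3, and in pair 2 the difference was -0.467. Large and small subunit genes rose and fell together between libraries. The CPM on large subunit genes for each CPM on small subunit genes was 1.41, 1.39 and 1.39 in the F4/80high libraries of replicates 1 to 3, against 1.38, 1.37 and 1.35 in the F4/80low libraries. This ratio was slightly higher in F4/80high in each pair and the subsets did not overlap; it was not tested.

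**Figure D1:**
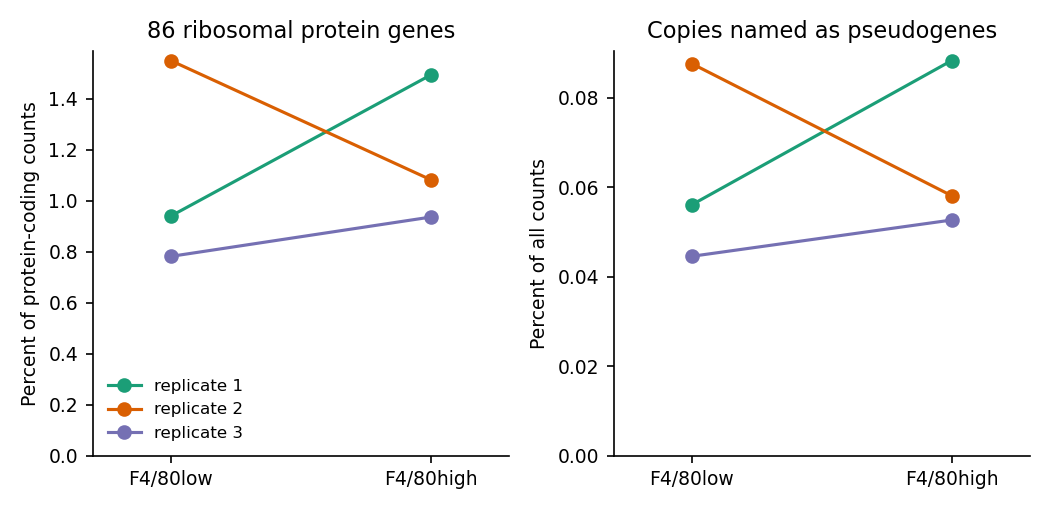
Share of counts on the 86 ribosomal protein genes (left, percent of protein-coding counts) and on the Rpl and Rps rows named as pseudogene copies (right, percent of all counts), with a point for each library and a line for each replicate pair. The lines of replicates 1 and 3 rise towards F4/80high and the line of replicate 2 falls, from 1.55% to 1.08% on the left.

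No ribosomal protein gene passed the test between the subsets. In the edgeR fit with the replicate number as a block, 0 of 86 had an adjusted p under 0.05, where 76 of 14776 genes (0.514%) passed that threshold together with an absolute log2 fold change above 1. At an unadjusted p under 0.05, 1 of the 86 was higher in F4/80high TAMs (3.96% of all genes) and 0 were lower (5.88% of all genes). DESeq2 with the same block also called 0 of the 86, and 2.42% of all genes. The lowest adjusted p among the 86 was 0.426. Their median log2 fold change was 0.12 (-0.01 over all genes), with 69 of 86 values above 0, and the median SE was 0.25. Without replicate 1 of both subsets the median was -0.14 and 60 of 86 values were below 0, and without replicate 2 of both it was 0.35, with 10 of 86 higher at an unadjusted p under 0.05 (3.88% of all genes) and 0 called.

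Behind this mean difference lay a common movement that changed sign between pairs. In pair 1, 84 of the 86 genes were higher in the F4/80high library, in pair 2, 79 of the 86 were lower, and in pair 3, 67 of the 86 were higher. The median difference in log2 CPM of the 77 core genes was 0.64 in pair 1, -0.44 in pair 2 and 0.14 in pair 3, where the median over all genes was 0.01, -0.02 and 0.00. The core genes lay close together around these medians, with an SD between genes of 0.24, 0.21 and 0.32. Every core gene was higher in F4/80high in pair 1, from 0.08 to 2.11, and 75 of 77 were lower in pair 2. The direction and size of the difference in pairs 1 and 2 depend on the pairing. Set the other way, in values added after seeing the data, the median core gene differed by -0.09 between F4/80high replicate 1 and F4/80low replicate 2 and by 0.31 between F4/80high replicate 2 and F4/80low replicate 1.

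The order higher, lower, higher over pairs 1, 2 and 3 was shown by 61 of the 86 genes, and by 13% of all genes fitted. This pattern was picked out after the values had been seen. A further 17 were higher in pair 1 and lower in pairs 2 and 3. Only 4 of the 86 (*Rpl15*, *Rpl23a*, *Rpl36al* and *Rpl7l1*) were higher in all 3 pairs, against 16% of all genes, and 0 were lower in all 3, against 15.7%. The genes share each library, so the 86 are not independent observations of it, and with 3 pairs the sign of a pair rests on 2 libraries. In bulk RNA, fewer cells of a type and less RNA per cell cannot be told apart.

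**Figure D2:**
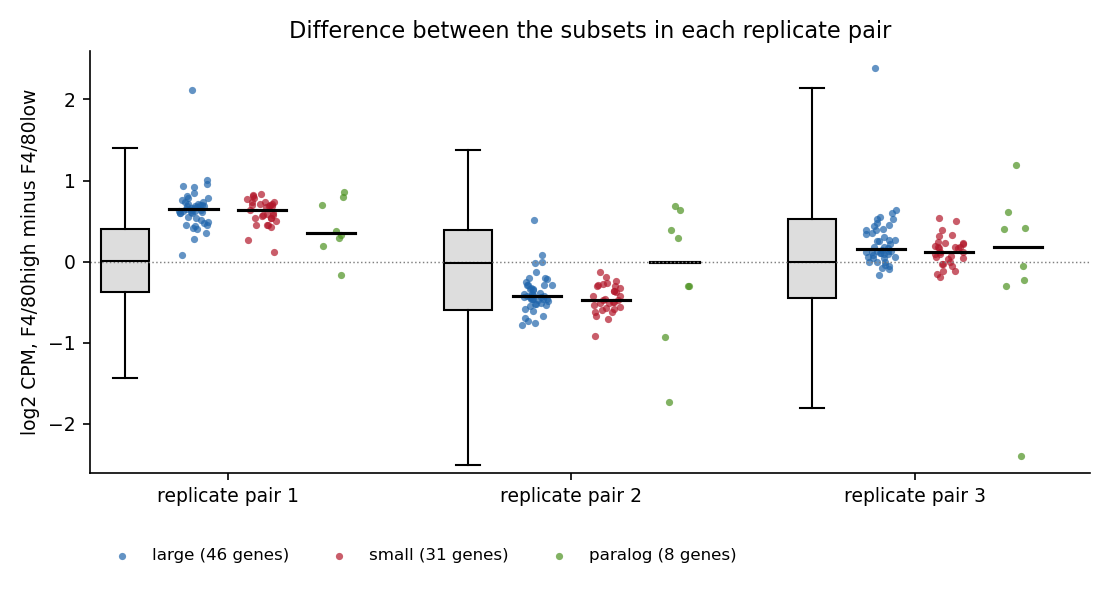
Difference in log2 CPM (F4/80high minus F4/80low) of each ribosomal protein gene in each replicate pair, with large subunit genes in blue, small subunit genes in red, paralogs in green and a black bar at each median; grey boxes show all 14776 genes fitted, with whiskers at their 5th and 95th percentiles, and *Rpl3l* (-3.95 in pair 3) is drawn at the lower end of the scale. The core genes sit together above 0 in pair 1 and, but for 2, below 0 in pair 2.

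The medians of the subunits lay close together in each pair. The 46 large subunit genes had median differences of 0.64, -0.43 and 0.16 in pairs 1, 2 and 3, and the 31 small subunit genes 0.63, -0.47 and 0.12. Within the small subunit, the proteins at the mRNA entry (*Rps2*, *Rps3* and *Rps9*) had medians of 0.43, -0.38 and 0.22, the 6 at the mRNA exit, *Rpsa* among them, 0.54, -0.55 and 0.18, and the 10 of the head and decoding region 0.58, -0.48 and 0.08. Within the large subunit, the 4 of the P stalk (*Rplp0*, *Rplp1*, *Rplp2* and *Rpl12*), which recruits the elongation factors, had medians of 0.67, -0.38 and 0.11. The 7 that line the exit of the nascent peptide had 0.67, -0.39 and 0.26.

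*Rpl5* and *Rpl11*, whose products bind 5S RNA in the central protuberance and can bind and inhibit MDM2 when ribosome assembly is disturbed, followed the other core genes in pairs 1 and 2. *Rpl5* measured 168, 162 and 594 CPM in the F4/80high libraries of replicates 1 to 3, against 93.8, 218 and 438 CPM in the F4/80low libraries. *Rpl11* measured 108, 88.6 and 109 CPM in the F4/80high libraries of replicates 1 to 3, against 69.8, 108 and 109 CPM in the F4/80low libraries. In both genes the subsets overlapped. By TMM-scaled CPM *Rpl5* was highest in the replicate 3 libraries of both subsets, whose TMM factors were the lowest (0.646 and 0.602).

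*Rps6*, the 40S protein that S6 kinases phosphorylate downstream of mTOR, moved least of the small subunit genes in pair 1. It measured 163, 174 and 68.5 CPM in the F4/80high libraries of replicates 1 to 3, against 150, 212 and 75.9 CPM in the F4/80low libraries, with differences of 0.12, -0.28 and -0.15 in the pairs. The fitted log2 fold change of -0.10 (SE 0.19) had an edgeR adjusted p of 0.915.

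Beyond those named below, *Rpl12* was among the members with the smallest p on the higher side, with a log2 fold change of 0.37 (SE 0.27) and an edgeR adjusted p of 0.716. It was higher, lower and higher over the pairs. On the lower side, among members whose mean level was no lower than 1 on the log2 CPM scale, the values were smaller than their SE: *Rps9* had -0.12 (SE 0.22), *Rpl9* -0.09 (SE 0.26), *Rpl19* -0.06 (SE 0.28), *Rpsa* -0.04 (SE 0.23), *Rps16* -0.03 (SE 0.25) and *Rplp0* -0.02 (SE 0.22), with edgeR adjusted p from 0.913 to 0.993. These 6 were all higher in pair 1 and lower in pairs 2 and 3.

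*Rpl23a*, a protein at the tunnel exit where chaperones and the signal recognition particle dock, had the largest difference of the core genes. Its raw counts were 301, 191 and 113 in the F4/80high libraries of replicates 1 to 3, against 68, 142 and 20 in the F4/80low libraries, or 7.59, 3.71 and 12.2 CPM against 1.70, 3.49 and 2.28 CPM. The 3 F4/80high libraries lay above the 3 F4/80low libraries, which was so for 1 of the 86 genes and 2.27% of all genes (the reverse for 0 of the 86 and 2.88% of all), but in pair 2 the libraries nearly met. The log2 fold change was 1.55 (SE 0.60), with an unadjusted p of 0.029 and an edgeR adjusted p of 0.426; the adjusted p was 0.104 to 1.00 over the alternatives. The gene (chromosome 11, 78180932 to 78183584) is the second lowest of the core genes per kb, and 0% of its coding sequence is unique by the measure given below.

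*Rpl15*, a core 60S protein on chromosome 14 (18267823 to 18271391), was the other core gene that was higher in pair 2. It measured 76.7, 102 and 43.6 CPM in the F4/80high libraries of replicates 1 to 3, against 49.4, 71.7 and 40.7 CPM in the F4/80low libraries. The differences in pairs 1, 2 and 3 were 0.64, 0.51 and 0.10, and the fit gave a log2 fold change of 0.42 (SE 0.22, edgeR adjusted p = 0.601). The ranges of the subsets overlapped, since replicate 3 was low in both.

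The paralogs did not move as a block. *Rpl36al*, which encodes a near copy of the RPL36A protein, measured 58.6, 83.9 and 34.0 CPM in the F4/80high libraries of replicates 1 to 3, against 46.9, 53.8 and 25.5 CPM in the F4/80low libraries. It was higher in F4/80high in each pair, by 0.32, 0.64 and 0.41, with a log2 fold change of 0.46 (SE 0.22, edgeR adjusted p = 0.545). Its parent *Rpl36a* had differences of 0.92, -0.25 and 0.41.

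*Rpl7l1*, a paralog of *Rpl7*, measured 86.2, 114 and 21.5 CPM in the F4/80high libraries of replicates 1 to 3, against 75.4, 87.5 and 16.2 CPM in the F4/80low libraries. It too was higher in each pair, by 0.19, 0.39 and 0.41, and its log2 fold change of 0.33 (SE 0.21) had an edgeR adjusted p of 0.676. *Rpl7* itself had differences of 0.60, -0.52 and 0.04. The difference between a paralog and its parent was not tested.

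*Rps27l*, a p53 target that encodes a paralog of RPS27, had differences of 0.29, -0.30 and 1.20 in pairs 1, 2 and 3, and *Rps27* had 0.71, -0.91 and 0.12. *Rpl22l1*, the paralog of *Rpl22*, had 0.86, 0.29 and -0.30, and *Rpl22* had 0.61, -0.35 and 0.53. *Rps19bp1* had -0.18, 0.27 and 0.64. None of the 8 paralogs had an adjusted p under 0.05. *Rpl3l*, known from striated muscle, had 33, 8 and 0 counts in the F4/80high libraries of replicates 1 to 3, against 25, 27 and 8 in the F4/80low libraries, and *Rpl39l*, known from testis, had 7 counts or fewer in each library, so their fold changes rest on very few reads.

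**Figure D3:**
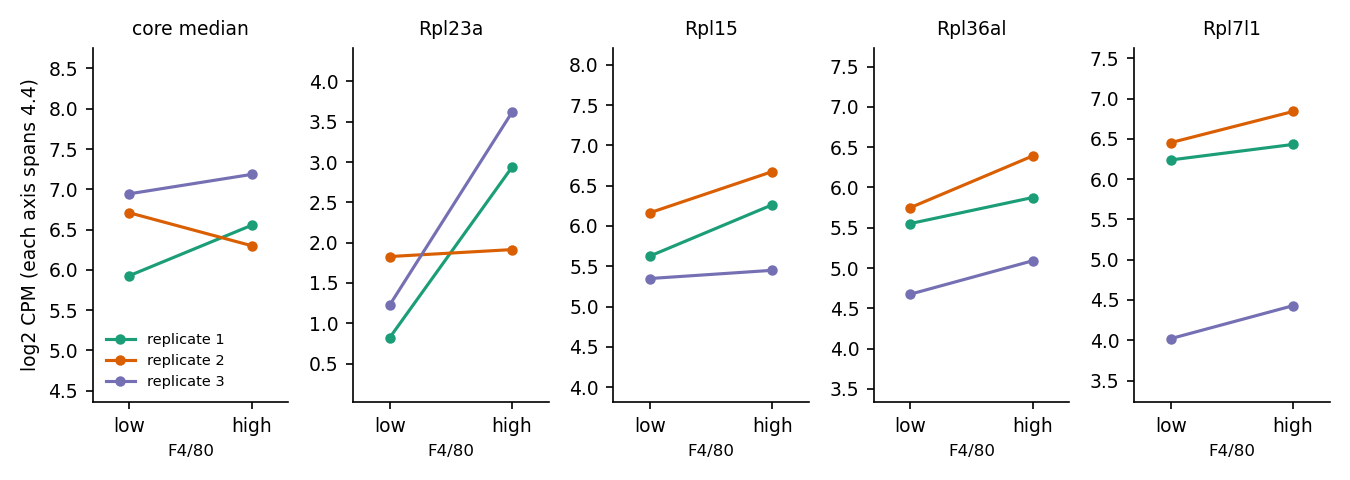
Log2 CPM in F4/80low and F4/80high TAMs of the median core subunit gene and of the 4 genes that were higher in F4/80high in all 3 pairs, with a line for each replicate and an equal span on each axis. In the core median the line of replicate 2 falls, and in the 4 genes no line falls.

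Levels per deposited gene length differed widely between genes whose products are needed in equal number. Over the 6 libraries, mean CPM per kb of the deposited gene length was 443 for *Rpl32*, 438 for *Rpl4* and 402 for *Rps3a1*, the highest of the core genes. It was 9.52 for *Rpl35a*, 6.09 for *Rpl23a* and 4.12 for *Rpl24*, the lowest, so that the core genes spanned 108-fold. The order differed between libraries. In replicate 3, *Rps25* was highest, at 847 CPM per kb in F4/80high and 827 in F4/80low, and the lowest were *Rpl35a* (8.15) and *Rpl23a* (2.69). *Rpl24* was lowest in the other 4 libraries, at 0.900 to 1.55 CPM per kb, and the span within a library was 104-fold to 543-fold. By CPM without regard to length, *Rpl32* ranked 13 and *Rpl4* 1. *Rpl24* had 39, 81 and 115 counts in the F4/80high libraries of replicates 1 to 3, against 37, 65 and 70 in the F4/80low libraries.

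How much of each gene can be told from its copies was measured on the reference. Of the 50-base stretches of the longest coding sequence in GENCODE M21, the median core large subunit gene had 9.07% that occur in no other gene's transcripts, and the median core small subunit gene 12.3%. The median over all genes was 100%. The share was 0% for 27 of the 77 core genes, *Rps6*, *Rpl5*, *Rpl11*, *Rpl15*, *Rpl23a* and *Rpl24* among them. Across the 77 core genes, mean CPM per kb and the unique share had a Spearman rho of 0.31, as a description over genes that share the same libraries. This value and the medians that follow also depend on the deposited lengths. The median was 114 CPM per kb for the 12 genes with at least 50% unique and 51.8 for the 27 at 0%. How the authors' counting treated reads that fit several places is not given in the sources used here, so levels of genes with near-identical copies are uncertain.

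**Figure D4:**
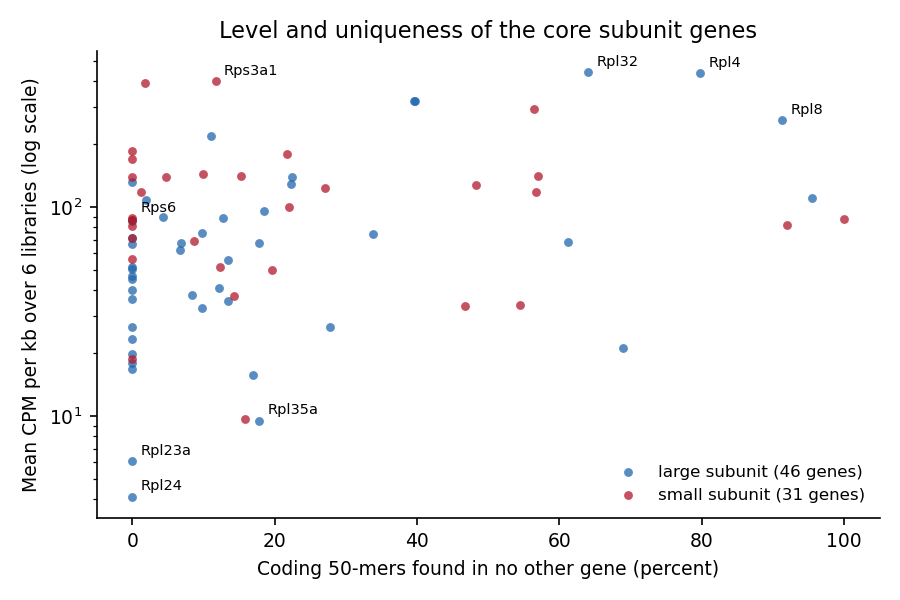
Mean CPM per kb over 6 libraries (log scale) of each core subunit gene against the percent of its coding 50-base stretches found in no other gene, with large subunit genes in blue and small subunit genes in red. *Rpl23a* and *Rpl24* lie lowest, at 0% unique, and *Rpl32* and *Rpl4* highest.

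The common movement was also seen in the genes that reads can best tell apart, a subset chosen after seeing the data. The 12 core genes with at least 50% unique coding sequence had median differences of 0.59, -0.46 and 0.12 in pairs 1, 2 and 3, and 11 of the 12 were higher, lower and higher. The 27 core genes with 0% had 0.65, -0.39 and 0.14. Core genes with a pyrimidine run near the RefSeq start had 0.66, -0.42 and 0.12 (27 genes), and core genes with a start but no such run had 0.60, -0.45 and 0.18 (30 genes).

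The other genes of translation were taken from fixed lists, and 0 of their members had an adjusted p under 0.05. Of the ribosomal genes with other names, *Gnb2l1*, the older symbol of *Rack1*, had differences of 0.71, -0.50 and 0.22 in pairs 1, 2 and 3, and *Fau*, which encodes RPS30, had 0.37, -0.32 and 0.07.

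Elongation factors and other genes with TOP mRNAs ran with the ribosomal proteins at a smaller size. The 18 genes, of which 6 (*Eif3e*, *Eif3f*, *Eif3h*, *Eif3k*, *Eif3l* and *Eif4b*) are also in the list of initiation factors, had medians of 0.44, -0.25 and 0.08, and 12 of 18 were higher, lower and higher. *Npm1*, which encodes the nucleolar protein nucleophosmin, had 0.56, -0.23 and 0.52, and *Hnrnpa1*, a splicing regulator, 0.80, -0.22 and 0.51. The 44 initiation factors had medians of 0.13, -0.08 and 0.07 but spread widely, with an SD between genes of 0.30, 0.40 and 0.47. Of these, 36 were higher in pair 1, and 12 were higher, lower and higher (27.3%, against 13% of all genes). At an unadjusted p under 0.05, 1 initiation factor was higher (*Eif2s3x*, the gamma subunit of eIF2, log2 fold change 0.86, SE 0.28, edgeR adjusted p = 0.318) and 1 was lower (*Eif3j1*, -0.67, SE 0.29, edgeR adjusted p = 0.498), of 44 and beside the 3.96% and 5.88% of all genes.

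Both lists of ribosome assembly factors had medians above 0 in each pair. The 43 measured assembly factors of the 60S subunit had medians of 0.28, 0.13 and 0.30 in pairs 1, 2 and 3, and 15 were higher in all 3 pairs. The 54 of the 40S subunit had 0.18, 0.19 and 0.24, and 16 were higher in all 3 pairs, where 16% of all genes were. At an unadjusted p under 0.05, 2 of the former and 3 of the latter were higher and 0 of either were lower. Over all genes 3.96% were higher and 5.88% lower at that level, so the counts of higher genes by p are near the background. *Tsr2*, the chaperone of RPS26, had a log2 fold change of 1.15 (SE 0.34, edgeR adjusted p = 0.254) and *Noc3l*, a nucleolar 60S factor, 1.22 (SE 0.43, edgeR adjusted p = 0.372).

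The 18 proteins of small nucleolar RNPs and their helpers lay between, with 0.50, -0.15 and 0.22. The 15 measured genes of RNA polymerase I, which transcribes ribosomal RNA, had 0.05, -0.07 and 0.36, and the 16 chaperones and importins of ribosomal proteins 0.45, -0.05 and 0.25. The 30 measured genes of mTOR and TOP control had 0.11, -0.03 and -0.10. Among them *Rragc*, a GTPase of amino acid sensing, had a log2 fold change of 0.57 (SE 0.23, edgeR adjusted p = 0.453) and *Rps6kb2*, an S6 kinase, -0.56 (SE 0.25, edgeR adjusted p = 0.500). The 76 mitochondrial ribosomal protein genes, which serve the ribosome of another compartment, had 0.35, 0.07 and 0.15, and 31 were higher in all 3 pairs. The 18 proliferation genes had 0.34, 0.54 and 0.38, with 12 higher in all 3 pairs. Over all genes fitted, 16% were higher in all 3 pairs.

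With the pairs as taken, lymphocyte markers changed sign over them as the ribosomal protein genes did. The 9 measured T and NK cell markers had medians of 1.55, -0.64 and 1.25 in pairs 1, 2 and 3, and 8 of the 9 were higher, lower and higher, *Cd4* among them although almost level in pair 2. The exception was the NK cell receptor gene *Ncr1*, with 1.23, 0.05 and -0.44. Their summed level was 1070, 342 and 196 CPM in the F4/80high libraries of replicates 1 to 3, against 385, 506 and 91.3 CPM in the F4/80low libraries, with *Nkg7* the most abundant, and none was at 0 in any library. *Cd3e*, a subunit of the T cell receptor complex, measured 163, 59.1 and 34.7 CPM in the F4/80high libraries of replicates 1 to 3, against 52.4, 68.7 and 14.6 CPM in the F4/80low libraries. The 6 measured B and plasma cell markers had medians of 0.77, -1.02 and 1.69, 4 of the 6 were higher, lower and higher, and their summed level was 138, 58.7 and 10.9 CPM in the F4/80high libraries of replicates 1 to 3, against 80.2, 128 and 6.60 CPM in the F4/80low libraries, with *Cd79a* the most abundant. The likeness depends on the pairing. Between F4/80high replicate 1 and F4/80low replicate 2, the T and NK markers summed to 1070 and 506 CPM. The core median difference there was -0.09. Between F4/80high replicate 2 and F4/80low replicate 1 the sums were 342 and 385 CPM, and the core median difference was 0.31. The part of T, NK and B cells in the movement of the ribosomal protein genes was not tested.

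Markers of myeloid cells did not follow it. The 8 macrophage markers were present in all libraries, with a summed level of 7155, 21154 and 4978 CPM in the F4/80high libraries of replicates 1 to 3, against 8925, 9500 and 5467 CPM in the F4/80low libraries, mostly *Lyz2*, and with medians of 0.07, 0.83 and 0.44. All 8 neutrophil markers were lower in F4/80high TAMs in all 3 pairs, with medians of -1.30, -1.42 and -0.93, and 5 of the 8 were called, as were 2 of 6 monocyte markers and 1 of 8 dendritic cell markers (all lower) and 1 of 8 macrophage markers (*Mertk*, higher), where 0.514% of all genes were called. Without the replicate block 0 of all genes were called, so these marker calls depend on the block. The neutrophil markers summed to 2025, 816 and 718 CPM in F4/80high replicates 1 to 3, and 4534, 2900 and 1475 CPM in F4/80low. The monocyte markers had medians of -0.55, -1.86 and -1.33, the eosinophil markers -1.03, -2.39 and -1.11, the dendritic cell markers -0.73, -1.34 and -0.69, the fibroblast markers -0.30, -1.31 and -0.32 and the erythroid markers -0.26, -0.96 and -0.77. The 5 measured endothelial markers had -0.66, -0.45 and 0.48. Of the keratinocyte markers only *Krt10* was measured, at 0.228 to 1.82 CPM, with differences of 0.68, -0.29 and 1.83. Melanoma markers summed to 13.4 to 168 CPM, mostly *Mitf*, which macrophages also express. The 4 measured had medians of 0.69, 0.22 and 0.67, all 4 were higher in pair 1 and 2 were higher, lower and higher. *Mitf* was higher in each pair (log2 fold change 0.64, SE 0.22, edgeR adjusted p = 0.373).

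**Figure D5:**
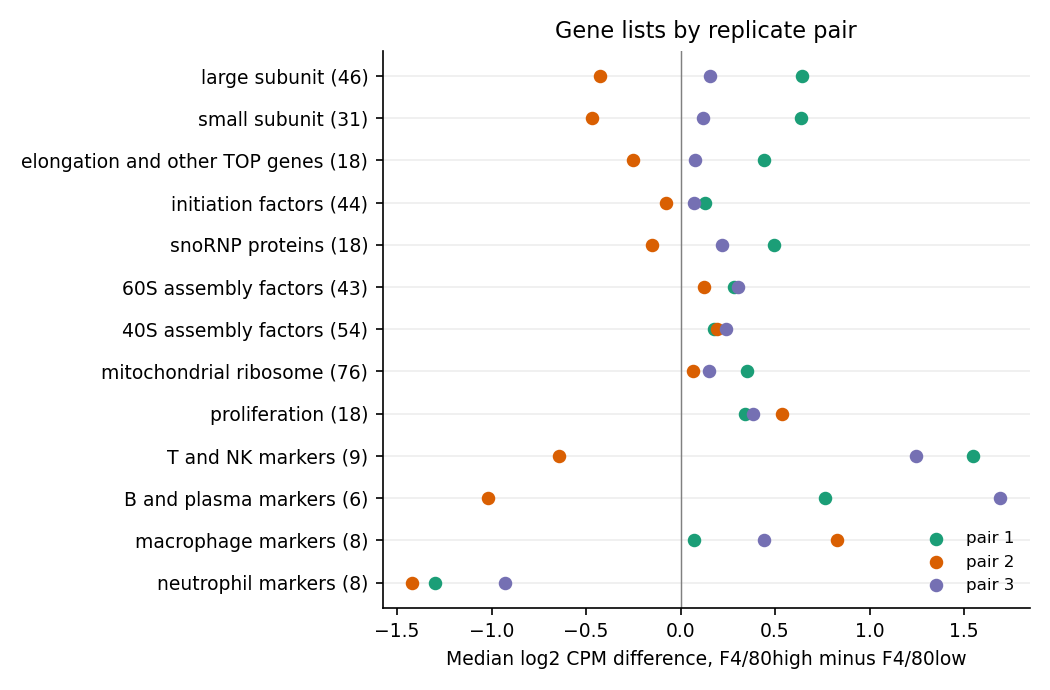
Median difference in log2 CPM (F4/80high minus F4/80low) of each gene list in replicate pairs 1, 2 and 3, with the number of genes measured in parentheses. Pair 2 lies below 0 and pairs 1 and 3 above 0 for both ribosomal subunits and the elongation list. The same holds for the initiation factors, the snoRNP proteins and the T, NK and B cell markers. All 3 pairs lie above 0 for the assembly factors, the mitochondrial ribosome, the proliferation genes and the macrophage markers, and below 0 for the neutrophil markers.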

How the data were processed

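Bulk poly-A RNA-seq counts of 3 F4/80high and 3 F4/80low TAM libraries were analysed. The authors deposited raw read counts per gene, with gene length and biotype, made by the standard alignment pipeline of their sequencing center. The aligner, counting rule, strand, build and annotation are not given in the sources used here. The members and lists were chosen with earlier results of these data known.

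Protein-coding genes (deposited biotype) with at least 10 counts in total were fitted with edgeR 4.0.16 in R 4.3.3 (quasi-likelihood test, TMM), with the replicate number as a block and Benjamini-Hochberg adjustment over all 14776 genes. Genes were called where the adjusted p was under 0.05 and the log2 fold change above 1 in size. The study's supplement lists both subsets under each sample number. After each subset mean was subtracted, the libraries of pairs 1, 2 and 3 had correlations of 0.745, 0.729 and 0.907 (10089 genes), but 0.633 and 0.613 were found between replicates 1 and 2 of different subsets. The difference of replicate 1 from replicate 2, which holds no replicate 3, correlated at 0.241 between the subsets (0.247 without the ribosomal protein genes). Log2 CPM used a prior count of 2. The TMM factor was 0.602 and 0.646 in the replicate 3 libraries and 1.21 to 1.34 in the others. In these libraries 3 counts equal 0.0688 to 0.187 CPM of the total, which covers counting error only. That range is not on the TMM-scaled CPM used for gene levels. On the TMM scale 1 count alone equals 0.108 and 0.114 CPM in the replicate 3 libraries, so low levels there rest on very few reads. With the block, p-values measure the spread of the difference between the subsets over 3 pairs of pooled samples, and not the spread between experiments.

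Besides *Adgre1*, *Fau*, *Rack1*, *Rps6*, *Rpl5*, *Rpl11* and the paralogs, genes were named by a rule: the 8 smallest p among members on each side (mean log2 CPM of at least 1), the 3 highest and 3 lowest core genes per kb, and up to 2 per direction of each list. Some genes that this rule names are not reported here. Parents of paralogs, *Rps25*, subunit-region members and marker genes were named after their values were seen. Positions and coding sequences came from GENCODE M21 (GRCm38), which holds 99.3% of the gene IDs and may not be the authors' annotation, and promoters from RefSeq. Alternatives were DESeq2 1.42.0, no block, other scalings, filters and biotypes, a length correction and leaving out libraries. No library was a copy of another. The fit was tested on simulated data, but the outcome is not reported here and no result rests on it.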

Additional observations from a re-analysis of the deposited data

Results flagged for a closer look

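The Rpl and Rps rows named as pseudogene copies (-ps), which were not counted among the 86 ribosomal protein genes, held counts in every library. There were 165 such rows, 15 of them protein-coding in the deposited tables. They took 0.0446% of all counts in the library where their share was lowest (F4/80low replicate 3, 7225 counts). The share was 0.0884% where it was highest (F4/80high replicate 1, 26771 counts). For each 100 counts on the 86 ribosomal protein genes there were 5.49 to 6.34 counts on these copies in the 6 libraries, and the share of the copies rose and fell over the libraries as that of the genes did. How reads that fit both a copy and its parent were counted is not given, and whether the copies are transcribed was not tested.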

How the results depend on the processing

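None of the 19 other fits called a ribosomal protein gene, and 0 had an adjusted p under 0.05 in any of them. The median log2 fold change of the 86 stayed between 0.09 and 0.17 in the fits on all 6 libraries, and was -0.14 to 0.39 without 1 library; its sign rests on replicate 1 of either subset. The pattern higher, lower, higher was shown by 57 members with RLE scaling (11.5% of all genes), 63 with TMM factors from the other genes (13.3%) and 72 with library size alone (18.6%), which moved the median of all genes by 0.12, -0.09 and 0.07 in the pairs. The number of all genes called (76) was less stable. Without the replicate block it was 0 with a batch term and 0 with subset alone (260 at an unadjusted p under 0.05), and with the block it was 357 by DESeq2, 16 with filterByExpr and 27 with all biotypes. Leaving out 1 library, or 1 replicate of both subsets, gave 0 to 429 genes called, 938 to 1758 at an unadjusted p under 0.05, 0 to 15 ribosomal protein genes higher at that level, 0 to 1 related genes called, and medians of the 40S assembly factors of 0.15 to 0.29. The 1 related gene was *Eif2s3x*, called without replicate 2 of either or both subsets. With library size alone, 2 ribosomal protein genes were higher at an unadjusted p under 0.05 and the median of the 40S assembly factors was 0.24. The 2 replicate settings other than replicate 3 were chosen after seeing the data. The causes were not tested.

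The fitted values of some genes changed sign. With library size alone the log2 fold changes were 0.026 for *Rps4l*, 0.0019 for *Rpsa*, 0.017 for *Rps16* and 0.022 for *Rplp0*, with all biotypes 0.014 for *Rps4l*, and with the length trend removed -0.018 for *Fau*, -0.0085 for *Rps3a1* and -0.020 for *Rpl4*. Leaving out libraries gave these ranges: *Fau* -0.13 to 0.22, *Gnb2l1* -0.14 to 0.46, *Rpl11* -0.14 to 0.32, *Rps27l* -0.0070 to 0.72, *Rps27rt* -0.61 to 0.27, *Rps4l* -0.23 to 0.15, *Rps9* -0.32 to 0.12, *Rpl9* -0.41 to 0.23, *Rpl19* -0.43 to 0.26, *Rpsa* -0.29 to 0.22, *Rps16* -0.31 to 0.27, *Rplp0* -0.26 to 0.20, *Rpl35a* -0.10 to 0.48, *Rps3a1* -0.17 to 0.35, *Rpl4* -0.13 to 0.24, *Rpl32* -0.046 to 0.48, *Eif3k* -0.26 to 0.036, *Eif3h* -0.25 to 0.12 and *Hspa14* -0.66 to 0.012.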
